A study of Mus musculus with 47 samples.

Results

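The data described here are the RNA-seq profiles of mouse mammary luminal cells early and midway in pregnancy, at 3.5 days (P3.5) and 14.5 days (P14.5) after mating. They are 6 of the 46 libraries with values in a study that followed luminal and basal cells over 8 time points of the reproductive cycle, and they were taken as the luminal libraries labelled P3.5 (replicates 2, 4 and 6) and P14.5 (replicates 2, 3 and 6). Both groups were FVB/N females that had been mated and dated by the vaginal plug, with no transgene, allele or drug given in the labels of either. Each library came from a separate sort of glands pooled from several mice, so that a replicate is a pool and the spread among animals within a pool cannot be seen. Cells carrying blood, endothelial or stromal markers (CD45, CD11b, Ly-6G/C, Ter-119, CD31, CD140a) were gated out. Luminal cells were then sorted as CD24+ CD29lo and basal cells as CD24+ CD29hi, with gates that were adjusted slightly from sort to sort. All 6 libraries shared amplification batch 6. The P3.5 libraries were run on sequencing lane 5 and the P14.5 libraries on lane 6, so lane and time point cannot be told apart.

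In a pregnant mouse the luminal layer turns from a ductal epithelium into milk-secreting alveoli. Progesterone and estrogen act on a hormone-sensing subset of luminal cells, which carry the receptors and pass the signal on to their neighbours through secreted factors such as amphiregulin and RANKL. Prolactin then acts through its receptor, JAK2 and STAT5 on the alveolar cells, where the transcription factor ELF5 and the milk protein genes are switched on. Cell division is known to be highest in the first part of pregnancy and secretory differentiation to begin in the middle, before full milk production starts at birth.

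The P3.5 libraries held 8551434, 11148617 and 10840173 reads on genes, and the P14.5 libraries 14937202, 9519867 and 11889301. A gene with 3 reads had between 0.19 and 0.29 CPM in these libraries, and lower values were treated as being under the floor. Values are the normalised CPM that the authors deposited, given below for replicates 2, 4 and 6 at P3.5 and replicates 2, 3 and 6 at P14.5, in that order. Log2 fold changes are P14.5 minus P3.5 on the log2(CPM + 1) scale, which understates changes of genes with few reads. They carry a standard error (SE) and an FDR (the Benjamini-Hochberg adjusted p) from limma over 17078 genes, with 1 spread shared by all 46 libraries. Calls required both a change of 2-fold or more and an FDR under 0.01, and are those of this fit unless another is named. An unadjusted p under 0.05 was reached by 2584 of all genes (15.1%), against which the counts of such genes in each list below can be read. The correlation of log2 values was 0.983, 0.987 and 0.979 among the P3.5 libraries, 0.971, 0.984 and 0.983 among the P14.5 libraries, and 0.948 to 0.960 between libraries of different time points, a description over genes with no test.

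The libraries carried luminal markers. The luminal keratin *Krt8* was at 655, 785 and 667 CPM at P3.5 and 1195, 510 and 788 CPM at P14.5. The epithelial adhesion gene *Epcam* was at 1059, 1230 and 982 CPM at P3.5 and 1439, 820 and 1019 CPM at P14.5. None of 10 luminal markers was called between the times by limma over all 46 libraries, edgeR or DESeq2, with 2 at an unadjusted p under 0.05, while limma over the 24 or the 6 luminal libraries alone called 1 higher. Basal markers were low: the 12 of them summed to 137, 109 and 223 CPM at P3.5 and 413, 363 and 248 CPM at P14.5, against 14051 to 23512 CPM in the basal libraries of the same times. The basal keratin *Krt5* stayed at or below 14.8 CPM in all 6 luminal libraries.

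Several libraries stood apart from the others of their time. Among genes with a mean of at least 5 CPM, 344 lay 2-fold or more from the mean log2 level of the other 2 libraries in P14.5 replicate 2, of which 295 were above, 393 in replicate 3, of which 314 were below, and 72 in replicate 6. At P3.5 there were 82, 344 and 172 such genes in replicates 2, 4 and 6. With all 6 libraries 139 genes were called higher at P14.5 and 121 lower, against 89 and 46 without P14.5 replicate 3 and 75 and 81 without P14.5 replicate 2. Calls were also lost without libraries that deviated less, with 72 and 54 left without P14.5 replicate 6 and 75 and 54 without P3.5 replicate 2. P14.5 replicate 2 also stood apart for markers of cell types that the gate was meant to remove. The 8 endothelial markers summed to 43.7, 32.2 and 33.1 CPM at P3.5 and to 325, 38.0 and 87.2 CPM at P14.5, with all 8 at their highest in P14.5 replicate 2. The most abundant of them was the von Willebrand factor gene *Vwf*, at 38.8, 30.6 and 18.8 CPM at P3.5 and 87.8, 19.8 and 37.0 CPM at P14.5. The 10 immune markers summed to 32.1, 34.1 and 39.0 CPM at P3.5 and 273, 97.2 and 132 CPM at P14.5, most of it from the antigen-presentation gene *Cd74*. The 9 fibroblast markers summed to 81.7, 185 and 143 CPM at P3.5 and 132, 98.6 and 60.5 CPM at P14.5. The proteoglycan gene *Dcn*, the most abundant at P3.5, was at 50.2, 159.5 and 84.9 CPM and then 16.2, 8.06 and 2.36 CPM, while 7 of the 9 had positive log2 fold changes. The median log2 fold change of the list was 0.29, against 1.94 for the endothelial and 0.82 for the immune markers. None of the endothelial, immune and fibroblast markers was called by limma over all 46 libraries or edgeR, with 6, 3 and 2 at an unadjusted p under 0.05. DESeq2 called 3 endothelial and 2 immune markers higher and 1 fibroblast marker lower, limma over the 6 libraries alone called 1 immune marker higher, and limma after rescaling without milk proteins called 1 fibroblast marker lower. Of the adipocyte markers, *Fabp4* was called, at 2.03, 0.836 and 3.12 CPM at P3.5 and 104, 11.3 and 24.7 CPM at P14.5, but the call ended when any single library other than P14.5 replicate 3 was left out, and the lipid droplet coat gene *Plin1* was under the floor in all 6 libraries. *Fabp4* is also a gene of endothelial cells. The part of other cell types in the results below was not tested beyond leaving out P14.5 replicate 2.

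**Figure D1:**
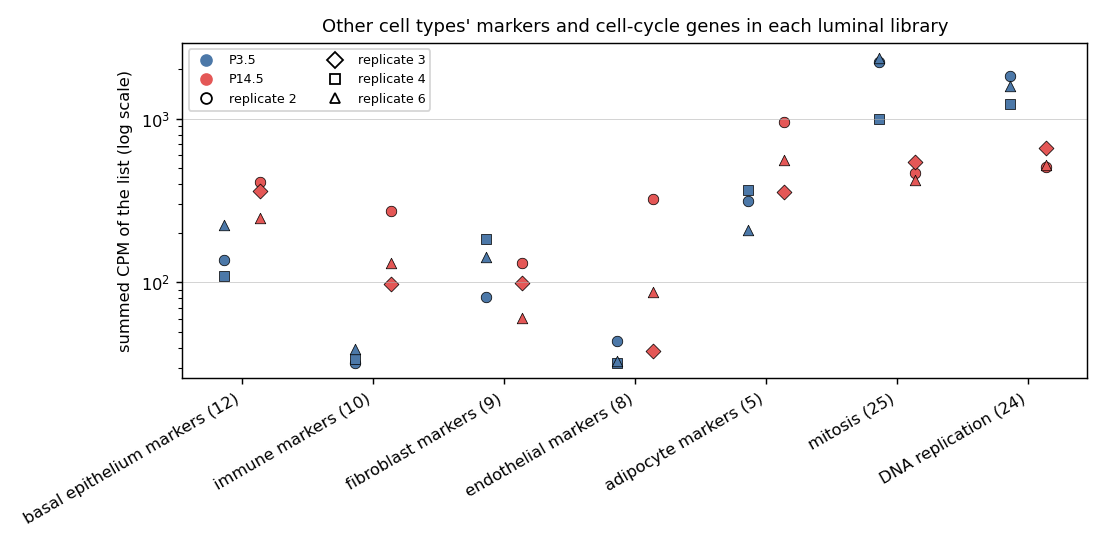
Summed CPM (log scale) of marker and cell-cycle gene lists in each of the 6 luminal libraries, with P3.5 in blue, P14.5 in red, a symbol for each replicate and the number of genes in brackets. P14.5 replicate 2 (circle) reaches 325 CPM for endothelial markers, and all 3 P14.5 libraries lie below all 3 P3.5 libraries for mitosis and DNA replication.

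Between P3.5 and P14.5, 5 of 10 milk protein genes, 5 of 10 genes of the milk fat globule and 7 of 24 genes of fatty acid and triglyceride synthesis were called higher in luminal cells, and 7 of 16 genes of the hormone-sensing subset were called lower. In RNA of sorted cells, fewer cells of a type and less RNA per cell cannot be told apart. In all, 139 genes were called higher at P14.5 (0.814% of those tested) and 121 lower (0.709%), together 260 (1.52%), and none of them overlapped between the 3 libraries of each time. Without regard to the call, the 3 P14.5 libraries were all above the 3 P3.5 libraries for 2643 genes (15.5%) and all below for 2689 (15.7%). The 139 and 121 calls make 53.5% and 46.5% of all calls. When each library was rescaled by its sum without milk proteins, 28.9% of calls were higher and 71.1% lower, and the median of all genes moved to -0.152 on the log2 scale. Between 72 and 89 genes were called higher and between 46 and 81 lower when 1 of the 6 libraries was left out. P14.5 replicate 2 was the highest of the 3 P14.5 libraries for 70 of the 139 genes and for 72 of the 121. The share over all genes was not counted. Among genes with a mean of at least 5 CPM, P14.5 replicate 2 lay 2-fold or more above the other 2 libraries for 295 and below for 49. Without it, the members called higher numbered 3 milk proteins in place of 5, 4 genes of the milk fat globule in place of 5, 4 of fatty acid and triglyceride synthesis in place of 7 and 1 of milk defence in place of 2. Those called lower numbered 4 hormone-sensing genes in place of 7 and 1 luminal transcription factor in place of 2. Leaving out any other single library gave 3 or 4 milk proteins, 4 or 5 genes of fatty acid and triglyceride synthesis called higher and 2 or 3 hormone-sensing genes.

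On the log2(CPM + 1) scale, milk protein genes had the highest median change of the 27 gene lists. By edgeR and DESeq2 on recovered reads the endothelial markers had a higher median, at 3.85 and 3.88 against 3.66 and 3.64 for milk proteins, and the immune markers, at 2.50 and 2.49, lay above the milk fat globule genes, at 2.13 and 2.11. The 10 genes of this list took 1.33, 2.25 and 1.62% of all reads on genes at P3.5 and 21.8, 18.4 and 16.8% at P14.5. The means were 1.73% ± 0.47 and 19.0% ± 2.54 (SD, n = 3 each), a difference of 17.2 percentage points. The exact two-sided permutation test over libraries gave p = 0.1, which is the smallest p that 3 against 3 libraries allow. The 3 libraries of day 3 of lactation averaged 49.6%, so that the mean at P14.5 lay between those of P3.5 and lactation. The lactation libraries were of amplification batch 5, not 6, which cannot be told apart from stage. They also varied widely, with *Csn2* at 188022 to 688943 CPM. The 20 most abundant genes of each library together went from 11.0, 15.1 and 13.8% of a library at P3.5 to 31.3, 30.7 and 28.7% at P14.5.

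Of the 10 milk protein genes, 5 were called higher and none lower, all 10 had positive log2 fold changes, and the median was 3.08. The β-casein gene *Csn2* was at 3207, 5791 and 4071 CPM at P3.5 and 103552, 70309 and 68910 CPM at P14.5, an 18.6-fold rise of means (log2 fold change 4.23, SE 0.84, FDR 0.0017). By share of reads, which is not touched by the authors' scaling factors, *Csn2* went from 0.599% ± 0.142 to 7.79% ± 1.08 (SD, n = 3 each). The groups were far apart, and P14.5 replicate 2 was the highest. The call of *Csn2* nevertheless ended when P3.5 replicate 2, P3.5 replicate 6 or P14.5 replicate 2 was left out, and in the fit of the 6 libraries alone.

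The other caseins moved by different amounts. The αS2-like casein gene *Csn1s2a* was at 1053, 2642 and 1646 CPM at P3.5 and 62023, 45852 and 43783 CPM at P14.5 (log2 fold change 4.91, SE 0.87, FDR 0.00054), and it was called under 15 alternative settings. One more setting, a block by replicate number that left 1 residual degree of freedom, called no gene at all and is not among these 15. The αS1-casein gene *Csn1s1* went from 3071, 4067 and 2863 to 44235, 31835 and 30666 CPM (3.41, SE 0.77, FDR 0.0061), and this call ended when any 1 of the 6 libraries was left out. The κ-casein gene *Csn3*, whose product stabilises the micelle, was at 1529, 3900 and 1976 CPM and then 17678, 9882 and 11153 CPM, which did not overlap but did not pass the test (2.46, SE 0.77, FDR 0.065). *Csn1s2b* had only 0.569, 1.25 and 1.78 CPM at P3.5 and 40.9, 8.55 and 6.33 CPM at P14.5, with P14.5 replicate 2 well above the others (FDR 0.072).

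Whey and mucin-like milk proteins started from much lower values. The whey acidic protein gene *Wap* was at 2.68, 12.0 and 13.4 CPM at P3.5 and 799, 432 and 365 CPM at P14.5, a 56.8-fold rise of means (log2 fold change 5.83, SE 1.04, FDR 0.00056). *Glycam1*, which encodes a mucin-like glycoprotein of milk, went from 7.80, 67.7 and 46.8 CPM to 19849, 11905 and 11927 CPM, 357-fold by the means (8.85, SE 1.49, FDR 0.00025). P3.5 replicate 2 was the lowest library for both genes, and the lowest P14.5 value of each was far above the highest P3.5 value. The edgeR test on recovered reads called neither gene, while the others of the 15 alternatives called both.

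The remaining milk proteins were not called. α-Lactalbumin, the regulatory subunit of lactose synthase encoded by *Lalba*, was at 1.46, 19.7 and 5.34 CPM at P3.5 and 17.2, 13.5 and 9.45 CPM at P14.5, so the groups overlapped (FDR 0.68). Osteopontin (*Spp1*) was at 278, 836 and 464 CPM and then 2710, 1395 and 1557 CPM (FDR 0.29), and the bile-salt-dependent milk lipase *Cel* at 69.1, 115 and 91.0 CPM and then 362, 191 and 180 CPM (FDR 0.39). P3.5 replicate 4 was the highest P3.5 library for *Csn2*, *Csn1s1*, *Csn1s2a*, *Csn3*, *Lalba*, *Glycam1*, *Spp1* and *Cel*. In that library the 10 milk protein genes summed to 17451 CPM, against 9219 and 11178 CPM in the other P3.5 libraries.

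**Figure D2:**
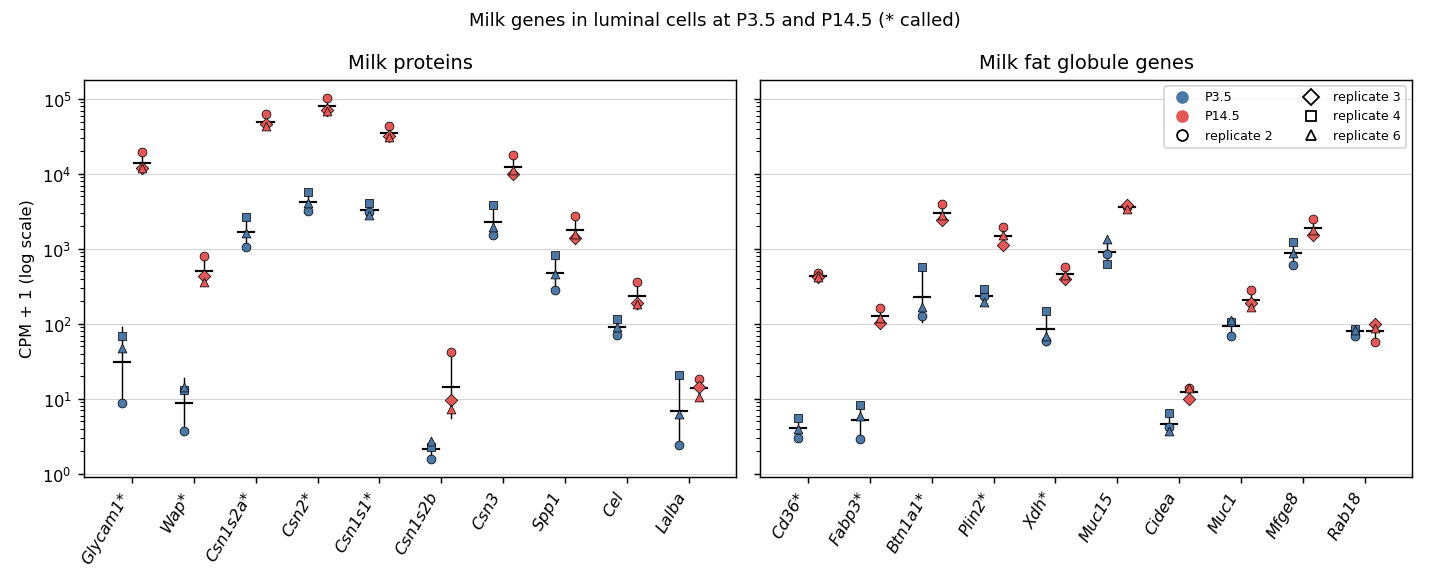
CPM + 1 (log scale) of milk protein genes (left) and milk fat globule genes (right) in each luminal library, with P3.5 in blue, P14.5 in red, a symbol for each replicate, bars for the mean ± SD of the log2 values and an asterisk for called genes. *Csn2* reaches 103552 CPM in P14.5 replicate 2, and *Lalba* and *Rab18* are the genes whose times overlap.

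The 250 bases before the annotated start of the 5 called milk protein genes are shown because STAT5, the factor that prolactin activates, binds a palindrome of the form TTCNNNGAA. Sequences are from RefSeq (build GRCm38.p6), 5′ to 3′ on the strand of the gene, with a match to these letters in capitals, and the palindrome reads the same on both strands. The windows are chr5:87699426-87699675 (minus strand) for *Csn2*, chr5:87665958-87666207 (plus) for *Csn1s1*, chr15:103565082-103565331 (minus) for *Glycam1*, chr5:87774200-87774449 (plus) for *Csn1s2a* and chr11:6638650-6638899 (minus) for *Wap*.
Csn2: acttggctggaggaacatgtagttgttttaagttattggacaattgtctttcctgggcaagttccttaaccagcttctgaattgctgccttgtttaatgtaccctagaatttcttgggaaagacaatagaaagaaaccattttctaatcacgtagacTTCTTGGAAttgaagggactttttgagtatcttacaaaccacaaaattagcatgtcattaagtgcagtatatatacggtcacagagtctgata
Csn1s1: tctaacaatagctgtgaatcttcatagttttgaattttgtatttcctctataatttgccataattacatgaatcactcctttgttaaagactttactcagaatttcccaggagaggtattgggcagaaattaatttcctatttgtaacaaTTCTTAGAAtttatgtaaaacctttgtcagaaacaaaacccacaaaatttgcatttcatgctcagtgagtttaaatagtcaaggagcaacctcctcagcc
Glycam1: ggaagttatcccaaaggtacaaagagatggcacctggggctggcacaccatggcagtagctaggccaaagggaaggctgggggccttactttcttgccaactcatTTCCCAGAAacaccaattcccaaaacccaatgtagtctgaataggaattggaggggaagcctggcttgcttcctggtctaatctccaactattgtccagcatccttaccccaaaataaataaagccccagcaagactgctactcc
Csn1s2a: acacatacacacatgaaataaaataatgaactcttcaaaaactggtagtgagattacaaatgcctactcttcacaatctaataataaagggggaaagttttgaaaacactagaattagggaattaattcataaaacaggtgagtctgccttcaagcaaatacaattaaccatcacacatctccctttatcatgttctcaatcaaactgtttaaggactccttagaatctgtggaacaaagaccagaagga
Wap: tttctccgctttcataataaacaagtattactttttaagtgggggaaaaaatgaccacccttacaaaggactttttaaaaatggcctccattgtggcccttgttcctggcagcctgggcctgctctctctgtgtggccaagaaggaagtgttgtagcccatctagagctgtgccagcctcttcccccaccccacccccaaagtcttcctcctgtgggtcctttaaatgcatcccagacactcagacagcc

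*Csn2* holds TTCTTGGAA at 93 to 85 bases before its start, *Csn1s1* holds TTCTTAGAA at 100 to 92 bases and *Glycam1* holds TTCCCAGAA at 145 to 137 bases. The windows of *Csn1s2a* and *Wap* hold no such letters, and both genes were called higher like the other 3. Over all 32851 RefSeq windows of this length, 7.02% hold a match, and over the 11722 genes of the table that were found among them, 7.23%. Among genes called higher it was 11 of 108 with a window (10.2%), among genes called lower 9 of 92 (9.78%), and among the milk protein genes 3 of 8 (37.5%). These counts are a description of letters and of no binding.

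Of 10 genes of the milk fat globule, the lipid droplet that buds from the cell wrapped in plasma membrane, 5 were called higher, none lower, and the median log2 fold change was 2.22. The fatty acid carrier *Cd36* was at 2.03, 4.60 and 2.92 CPM at P3.5 and 478, 419 and 419 CPM at P14.5 (log2 fold change 6.76, SE 0.96, FDR 3.24e-05). *Fabp3*, an intracellular fatty acid binding protein, went from 1.95, 7.25 and 4.83 CPM to 164, 102 and 119 CPM (4.60, SE 0.74, FDR 0.00016), with 19.6% of its exon bases shared with another protein-coding gene in the annotation. In both genes the P14.5 libraries lay close together and far above P3.5, and both calls held under the 15 alternatives that could make calls.

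The 3 genes whose products form the secretory bridge between droplet and membrane were called as well. Butyrophilin (*Btn1a1*) was at 128, 567 and 168 CPM at P3.5 and 3917, 2419 and 2832 CPM at P14.5 (3.70, SE 0.78, FDR 0.0035), and the call ended when any single library other than P3.5 replicate 4 was left out. The droplet coat protein *Plin2* was at 231, 291 and 195 CPM and then 1949, 1118 and 1553 CPM (2.67, SE 0.36, FDR 1.57e-05). Xanthine oxidoreductase (*Xdh*) was at 59.0, 148 and 68.7 CPM and then 571, 397 and 445 CPM (2.45, SE 0.42, FDR 0.00030). P3.5 replicate 4 was again the highest P3.5 library in each. *Muc15*, *Mfge8*, *Muc1* and *Cidea* were higher in all 3 P14.5 libraries without being called, with log2 fold changes of 2.00, 1.13, 1.15 and 1.41, and *Rab18* was at 0.00 (SE 0.33).

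Synthesis of fatty acids and triglycerides changed in both directions: of 24 genes, 7 were called higher and 2 lower, with a median log2 fold change of 1.05 against 0.00 over all genes. The lipogenic regulator *Thrsp* (Spot 14) was at 22.4, 12.1 and 26.4 CPM at P3.5 and 475, 443 and 409 CPM at P14.5 (4.44, SE 0.74, FDR 0.00025). Lipoprotein lipase (*Lpl*), which takes fatty acids from circulating triglyceride, was at 49.2, 49.9 and 64.0 CPM and then 760, 651 and 708 CPM (3.68, SE 0.51, FDR 2.35e-05). *Olah*, the thioesterase that ends fatty acid chains at medium length, was at 0.894, 3.76 and 1.53 CPM and then 35.3, 27.6 and 34.9 CPM (3.56, SE 0.63, FDR 0.00054). The 3 P14.5 libraries were tight for *Thrsp*, *Lpl* and *Olah*, and all 3 calls held under the same 15 alternatives.

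Fatty acid synthase (*Fasn*) was at 480, 413 and 272 CPM at P3.5 and 2430, 1328 and 2259 CPM at P14.5 (2.36, SE 0.48, FDR 0.0023), and its call ended without P3.5 replicate 6, P14.5 replicate 2 or P14.5 replicate 6. Acetyl-CoA carboxylase (*Acaca*), which makes malonyl-CoA, was at 64.9, 54.9 and 58.1 CPM and then 185, 198 and 193 CPM (1.68, SE 0.38, FDR 0.0068). The acyl-CoA synthetase *Acsl4* rose by 2.14 (SE 0.30) and the phosphatidate phosphatase *Lpin1* by 1.86 (SE 0.44) on the log2 scale. Of the 15 alternatives, *Acsl4* was called under 15, *Acaca* under 7 and *Lpin1* under 5. The desaturase *Scd1* was at 682, 1136 and 567 CPM and then 3804, 2010 and 2456 CPM, with no overlap but an FDR of 0.024.

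Against these, 2 enzymes of the same list fell. *Dgat2*, which joins the last acyl chain to a triglyceride, was at 21.6, 21.2 and 16.7 CPM at P3.5 and 5.87, 1.97 and 4.64 CPM at P14.5 (-2.09, SE 0.38, FDR 0.00062), and the call ended without P14.5 replicate 3 and in the fit of the 6 libraries alone. *Dgat1*, the other enzyme of that step, was at 9.02, 8.29 and 9.92 CPM and then 16.7, 15.7 and 14.2 CPM (0.71, SE 0.29, FDR 0.19). *Dgat2* thus fell in every library while *Dgat1* lay higher in every library without passing the test. The desaturase *Scd2* was at 122, 83.7 and 87.5 CPM and then 32.5, 38.3 and 44.4 CPM (-1.31, SE 0.30, FDR 0.0064), though its call ended when any 1 library was left out.

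None of 19 measured genes of cholesterol synthesis was called, 13 had positive log2 fold changes, 8 were higher in every P14.5 library, and the median log2 fold change was 0.17, which turned to -0.06 when libraries were rescaled without milk proteins, while 3 genes had an unadjusted p under 0.05. No cholesterol gene was called by edgeR or DESeq2 either. The regulator *Srebf2* was at 145, 142 and 108 CPM at P3.5 and 125, 101 and 121 CPM at P14.5, with overlap between the times. *Srebf1*, the related regulator of fatty acid genes, was at 145, 104 and 120 CPM and then 281, 243 and 245 CPM (1.06, SE 0.37, FDR 0.10).

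**Figure D3:**
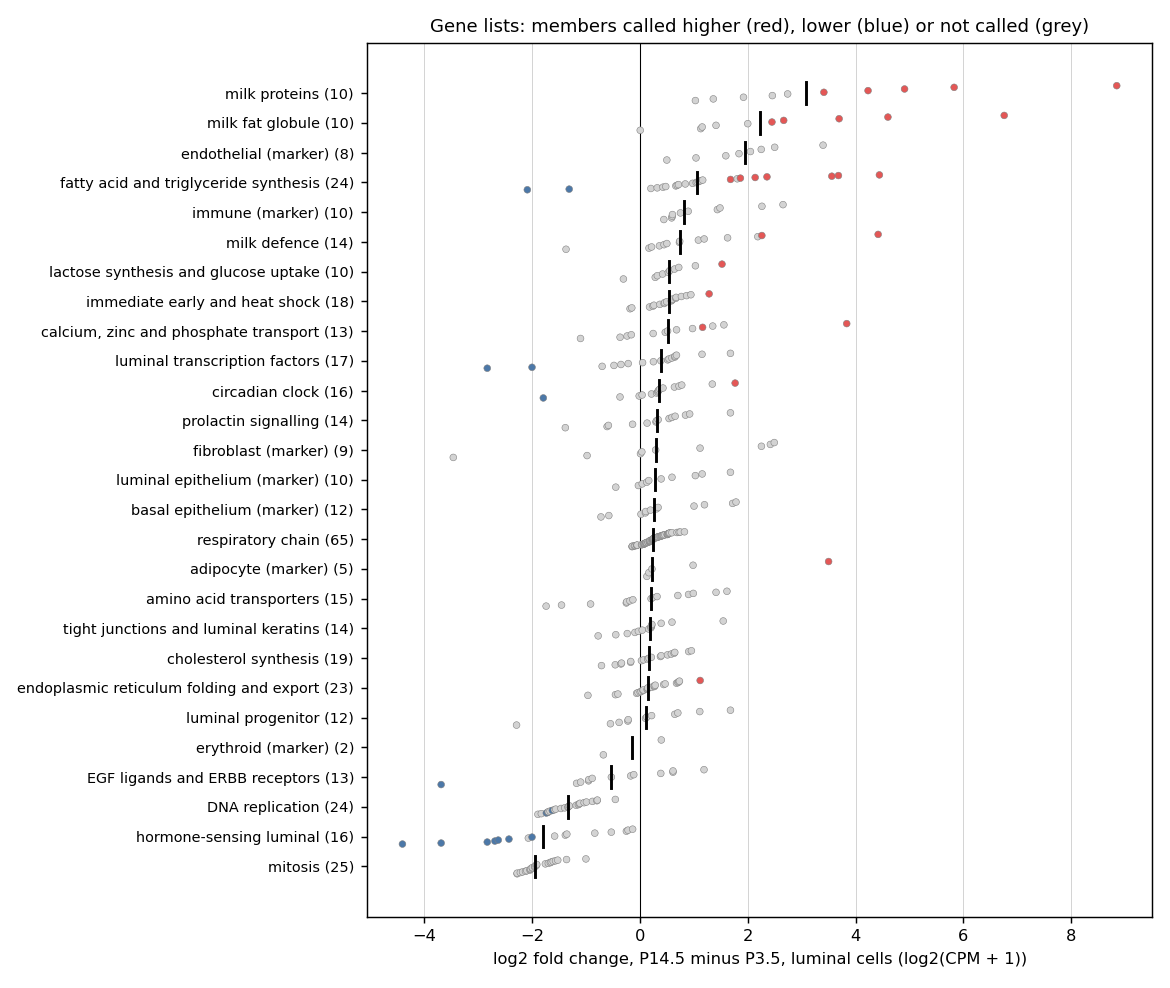
Log2 fold change (P14.5 minus P3.5, log2(CPM + 1)) of each measured member of the gene lists in luminal cells, with called genes in red (higher) or blue (lower), the rest in grey, a black bar for the list's median and the number of members in brackets. On this scale milk protein (median 3.08) and milk fat globule genes (2.22) lie highest, with endothelial markers next (1.94; by edgeR 3.85, above milk proteins at 3.66), and hormone-sensing (-1.79) and mitosis genes (-1.95) lowest.

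Lists for the other parts of milk held few calls. Their median log2 fold changes were 0.54 for lactose and glucose, 0.51 for calcium, zinc and phosphate, and 0.21 for amino acids. In the same order, 3 of 10, 7 of 13 and 5 of 15 genes had an unadjusted p under 0.05, against 15.1% of all genes. Of 10 genes of lactose synthesis and glucose uptake, 1 was called: the galactosyltransferase *B4galt1*, the catalytic part of lactose synthase, at 194, 287 and 222 CPM at P3.5 and 672, 700 and 629 CPM at P14.5 (1.52, SE 0.28, FDR 0.00064). The glucose transporter *Slc2a1* was at 347, 577 and 302 CPM and then 1109, 383 and 541 CPM, with overlap. Of 13 measured transporters of calcium, zinc and phosphate, 2 were called. The phosphate cotransporter *Slc34a2* was at 5.77, 11.5 and 7.12 CPM and then 154, 102 and 124 CPM (3.84, SE 0.71, FDR 0.00071). The zinc transporter *Slc30a4*, which supplies zinc to milk, was at 68.4, 81.2 and 59.0 CPM and then 153, 152 and 162 CPM (1.16, SE 0.25, FDR 0.0039). The call of *Slc34a2* held under the 15 alternatives named with *Csn1s2a*, and that of *Slc30a4* ended when any single library other than P3.5 replicate 4 was left out. The *Slc30a4* call also ended with the 24 luminal libraries alone (FDR 0.019) and after rescaling without milk proteins (FDR 0.012). Among 15 amino acid transporters none was called, 5 had an unadjusted p under 0.05, and 1 was called lower in each of 4 other settings, which were DESeq2, the 6 libraries alone, leaving out P14.5 replicate 2 and rescaling without milk proteins. The transporter *Slc38a2* was at 467, 905 and 400 CPM and then 618, 624 and 848 CPM. edgeR called none of these transporters and DESeq2 called 1 lower.

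Of 23 measured genes of folding and export in the endoplasmic reticulum 1 was called, and 7 had an unadjusted p under 0.05. Positive log2 fold changes were seen in 18, with a median of 0.14, which turned to -0.06 when libraries were rescaled without milk proteins. The called gene was *Sec24d*, part of the coat of export vesicles, at 25.6, 53.1 and 23.3 CPM at P3.5 and 73.4, 63.8 and 72.8 CPM at P14.5 (1.12, SE 0.25, FDR 0.0055), and its call ended without any single library other than P3.5 replicate 4. It also ended by edgeR, with the 24 or the 6 luminal libraries alone and after rescaling without milk proteins. The chaperone *Hspa5* was at 680, 888 and 781 CPM and then 1219, 1363 and 1274 CPM, which did not overlap (0.72, SE 0.26, FDR 0.13). Of 65 genes of the respiratory chain none was called by limma, edgeR or DESeq2, with 8 at an unadjusted p under 0.05. Their median log2 fold change was 0.24, and 0.01 when libraries were rescaled without milk proteins. As a share of all reads they went from 0.971% ± 0.0777 to 0.856% ± 0.0462 (SD, n = 3 each, exact permutation p = 0.2).

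Among 14 measured genes of milk defence, 2 were called higher by limma, 1 by edgeR and 3 by DESeq2. *Pigr*, the receptor that carries immunoglobulin A across the luminal cell into milk, was at 21.5, 36.4 and 21.4 CPM at P3.5 and 762, 442 and 544 CPM at P14.5 (4.42, SE 0.79, FDR 0.00054), and it was called under the 15 alternatives but not under the block by replicate number. Transferrin (*Trf*), the iron carrier, was at 100, 206 and 127 CPM and then 858, 564 and 607 CPM (2.26, SE 0.52, FDR 0.0076). The exons of *Trf* overlap another protein-coding gene over 63.5% of their length, so its reads are uncertain, and the call ended when any 1 library was left out. Lipocalin 2 (*Lcn2*) was at 1240, 3303 and 1542 CPM and then 4409, 1638 and 2212 CPM, and lactoferrin (*Ltf*) at 91.7, 259 and 110 CPM and then 266, 173 and 161 CPM. For both, P3.5 replicate 4 and P14.5 replicate 2 were the highest of their groups and the times overlapped. Complement *C3*, the most abundant gene of the list, was at 1475, 1450 and 1479 CPM and then 5332, 3738 and 4663 CPM, which did not overlap but did not pass the test (1.63, SE 0.78, FDR 0.31).

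The prolactin pathway itself was not called at any of its 14 measured genes by limma over all 46 libraries, edgeR or DESeq2, with 5 at an unadjusted p under 0.05 and a median log2 fold change of 0.32. Limma over the 24 luminal libraries called 1 higher, and over the 6 libraries 1 higher and 1 lower. The receptor *Prlr* was at 710, 871 and 689 CPM at P3.5 and 353, 250 and 269 CPM at P14.5, with no overlap and the P14.5 values all lower (-1.39, SE 0.80, FDR 0.45). It passed in the fit of the 6 libraries alone. The kinase *Jak2* was at 76.9, 81.6 and 55.4 CPM and then 69.2, 59.1 and 63.6 CPM. *Stat5a* was at 88.9, 49.7 and 61.3 CPM and then 93.6, 109 and 83.1 CPM, and *Stat5b* at 41.5, 21.2 and 26.9 CPM and then 36.2, 39.8 and 34.1 CPM. These 3 signalling genes overlapped between the times.

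Targets and brakes of the pathway varied. *Elf5*, the alveolar transcription factor, was at 127, 116 and 172 CPM at P3.5 and 451, 452 and 415 CPM at P14.5, tight and far apart (1.68, SE 0.52, FDR 0.061). It missed the threshold with the spread of all 46 libraries and passed it with that of the 24 luminal or the 6 libraries alone. The inhibitor *Cish* was at 18.8, 15.3 and 25.9 CPM and then 44.8, 33.3 and 30.8 CPM (FDR 0.21), while the inhibitor *Socs2* was at 25.4, 37.3 and 28.7 CPM and then 20.9, 14.4 and 24.05 CPM (FDR 0.57). The growth hormone receptor *Ghr* was at 20.7, 33.2 and 29.8 CPM and then 50.8, 57.2 and 50.5 CPM (FDR 0.19), and cyclin D1 (*Ccnd1*) at 663, 537 and 580 CPM and then 450, 354 and 382 CPM (FDR 0.71). *Id2* (0.65), *Nfib* (0.59), *Akt1* (0.30), *Socs3* (0.30) and *Socs1* (0.13) completed the list, none of them called.

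Of 16 genes of the hormone-sensing luminal subset, 7 were called lower and none higher, all 16 had negative log2 fold changes, 12 were lower in every P14.5 library, and the median was -1.79. Their summed level was 2263, 2160 and 1808 CPM at P3.5 and 718, 477 and 745 CPM at P14.5. The most abundant member was *Prlr*, which was not called and is also counted in the prolactin list. It made up 710, 871 and 689 CPM of the sums at P3.5 and 353, 250 and 269 CPM at P14.5. Without P14.5 replicate 2, 4 of the 16 genes were called, edgeR called 2 and DESeq2 called 8.

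*Cited1*, a coactivator that binds the estrogen receptor, fell by the most among them, from 433, 306 and 314 CPM to 16.7, 11.6 and 18.6 CPM, 22.4-fold by the means (-4.41, SE 1.03, FDR 0.0085). Amphiregulin (*Areg*), the EGF receptor ligand made by these cells under estrogen, was at 356, 336 and 233 CPM and then 35.2, 12.6 and 25.6 CPM (-3.69, SE 0.79, FDR 0.0037). The pioneer factor *Foxa1*, which opens chromatin for the estrogen receptor, was at 85.3, 74.1 and 90.8 CPM and then 12.1, 7.47 and 13.8 CPM (-2.83, SE 0.67, FDR 0.0092). Each was several times lower in every P14.5 library than in any P3.5 library. *Cited1* and *Foxa1* were nevertheless called only with all 6 libraries, since the call ended when any 1 was left out, and *Areg* kept its call when P14.5 replicate 2 was left out but not when any other was. The edgeR test called none of the 3.

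The estrogen receptor gene *Esr1* was at 82.3, 103 and 47.9 CPM at P3.5 and 21.2, 12.9 and 20.2 CPM at P14.5 (-2.004, SE 0.36, FDR 0.00056), a call that ended in the fit of the 6 libraries alone. The repressor *Tbx3*, needed for forming the gland, was at 58.0, 58.8 and 49.8 CPM and then 8.73, 4.72 and 12.6 CPM (-2.63, SE 0.40, FDR 9.02e-05), and it was called under the 15 alternatives but not under the block by replicate number. The transcription factor *Myb* was at 33.4, 17.9 and 28.5 CPM and then 4.17, 2.95 and 4.98 CPM (-2.43, SE 0.47, FDR 0.0014), but not without P3.5 replicate 2, P3.5 replicate 6 or P14.5 replicate 3. The surface marker *Prom1*, used to sort these cells, was at 51.0, 60.7 and 53.1 CPM and then 12.5, 4.42 and 7.76 CPM (-2.69, SE 0.63, FDR 0.0089), a call that ended when any 1 library was left out. For all 4 genes the lowest P3.5 library was above the highest P14.5 library.

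Other members did not pass. The progesterone receptor *Pgr* was at 39.4, 34.9 and 27.5 CPM at P3.5 and 17.8, 4.42 and 14.1 CPM at P14.5, lower in every library with P14.5 replicate 3 the lowest (-1.58, SE 0.69, FDR 0.24). *Wnt5a* (-2.07, FDR 0.024) and the chemokine receptor *Cxcr4* (-1.36, FDR 0.10) were also lower in every P14.5 library. The factors that progesterone induces in these cells overlapped between the times: *Wnt4* was at 130, 105 and 46.4 CPM and then 88.9, 51.2 and 82.3 CPM, and RANKL (*Tnfsf11*) at 25.3, 10.2 and 21.2 CPM and then 6.34, 18.0 and 28.4 CPM. Their log2 fold changes were -0.25 (SE 0.71) and -0.22 (SE 0.69), and both changed sign when P3.5 replicate 2 was left out. *Calca*, *Ly6a* and *Greb1* had log2 fold changes of -0.14, -0.84 and -0.53 and were not called.

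**Figure D4:**
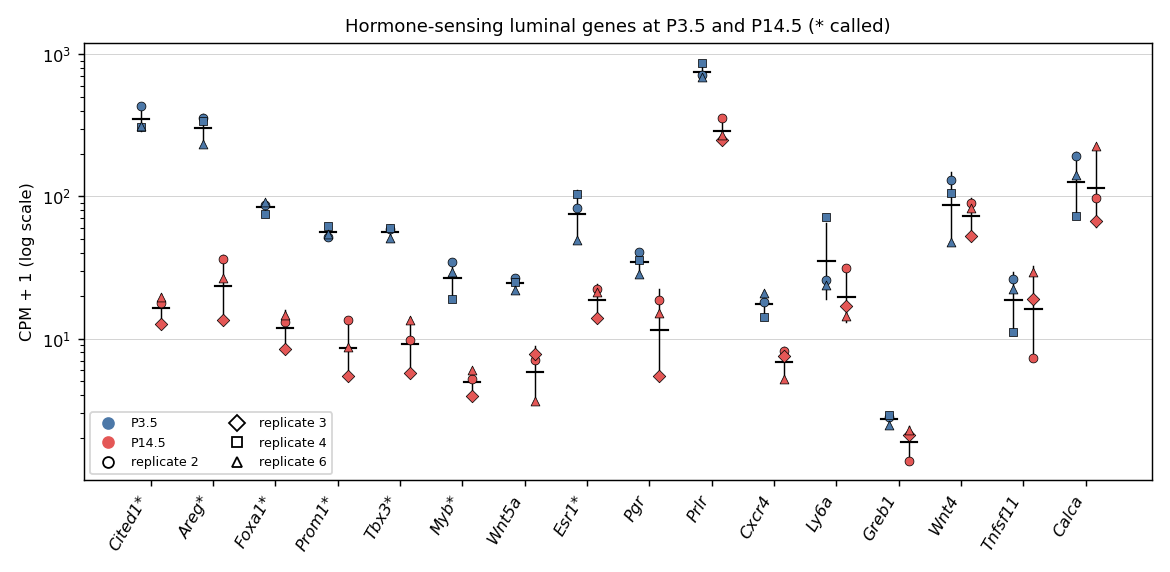
CPM + 1 (log scale) of the 16 hormone-sensing luminal genes in each luminal library, with P3.5 in blue, P14.5 in red, a symbol for each replicate, bars for the mean ± SD of the log2 values and an asterisk for called genes. The 3 P14.5 values of *Cited1* (11.6 to 18.6 CPM) lie far below its P3.5 values, while *Wnt4*, *Tnfsf11* and *Calca* overlap.

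Luminal progenitor genes showed no call among 12 measured by limma over all 46 libraries or by edgeR, and 2 had an unadjusted p under 0.05. Limma over the 24 luminal libraries called 1 higher, over the 6 libraries 1 higher and 1 lower, and DESeq2 and the rescaling without milk proteins 1 lower each. The receptor *Kit* was at 306, 244 and 292 CPM at P3.5 and 282, 316 and 317 CPM at P14.5, and the retinaldehyde dehydrogenase *Aldh1a3* at 39.3, 78.2 and 53.1 CPM and then 46.2, 43.1 and 36.0 CPM. The Notch target *Hey1* was lower in every P14.5 library, at 10.2, 11.0 and 17.5 CPM and then 2.63, 1.57 and 1.27 CPM (-2.29, SE 0.61, FDR 0.025). Of 17 luminal transcription factors 2 were called lower, which were *Esr1* and *Foxa1* again. *Gata3*, which maintains luminal identity, was at 69.0, 85.5 and 91.8 CPM and then 121, 99.4 and 101 CPM (0.39, SE 0.28, FDR 0.60). Among 13 EGF ligands and receptors *Areg* was the sole call, and the receptors *Egfr* (0.39, SE 0.46) and *Erbb3* (-0.17, SE 0.54) were not called.

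The 25 mitosis genes summed to 2215, 995 and 2352 CPM at P3.5 and 463, 545 and 423 CPM at P14.5. Every member had a negative log2 fold change, 24 of 25 were lower in every P14.5 library, and the median was -1.95, but none was called (FDR 0.025 to 0.44), against 22 with an unadjusted p under 0.05. edgeR called none, DESeq2 called 1 and the fit of the 6 libraries alone called 4. Topoisomerase *Top2a* was at 397, 207 and 334 CPM and then 61.1, 67.2 and 55.9 CPM (-2.28, SE 0.74, FDR 0.078). The mitotic cyclin *Ccnb1* was at 18.0, 6.69 and 13.6 CPM and then 1.47, 2.56 and 1.94 CPM (-2.12, SE 0.58, FDR 0.029). *Mki67* alone overlapped, at 541, 167 and 627 CPM and then 152, 169 and 129 CPM. P3.5 replicate 4 was the lowest P3.5 library in each of these genes and in the sum of the list, and it was also the P3.5 library with the most milk protein reads.

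Of 24 DNA replication genes measured, 3 were called lower, all 24 had negative log2 fold changes, 21 were lower in every P14.5 library, and the median was -1.33. The called genes were the ribonucleotide reductase subunit *Rrm1*, at 169, 124 and 132 CPM at P3.5 and 36.5, 51.1 and 47.8 CPM at P14.5 (-1.63, SE 0.35, FDR 0.0043), the replicative ligase *Lig1* (-1.74, SE 0.41, FDR 0.0089) and the helicase subunit *Mcm7* (-1.71, SE 0.40, FDR 0.0085). None of the 3 was called when any 1 library was left out. The clamp *Pcna* was at 178, 121 and 139 CPM and then 67.8, 67.0 and 61.8 CPM (-1.13, SE 0.27, FDR 0.013). In basal cells of the same times these lists had medians of -2.47 for mitosis, with 2 called lower, and -1.98 for DNA replication, with 9 called lower, and no member differed between the cell types by the test of the difference.

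The clock and stress lists gave few calls. Of 16 circadian genes, the transcription factor *Hlf* rose from 45.5, 29.8 and 54.3 CPM to 151, 134 and 151 CPM (1.77, SE 0.36, FDR 0.0020), a call that ended without P3.5 replicate 4, P14.5 replicate 2 or P14.5 replicate 6. The repressor *Bhlhe41* (DEC2) fell from 275, 304 and 331 CPM to 130, 79.6 and 62.5 CPM (-1.79, SE 0.28, FDR 0.00012), a call that ended in the fit of the 6 libraries alone, while its close relative *Bhlhe40* was at 540, 332 and 494 CPM and then 553, 477 and 365 CPM. The core genes *Arntl*, *Clock*, *Per1* and *Per2* had log2 fold changes from -0.37 to 0.64 and were not called. Of 18 immediate early and heat shock genes, which respond to cell isolation, *Myc* was the sole call, at 150, 177 and 157 CPM and then 578, 293 and 357 CPM (1.28, SE 0.30, FDR 0.0091), a call that ended without any single library other than P14.5 replicate 3. No gene of this list was called with the 24 or the 6 luminal libraries alone, after rescaling without milk proteins or by edgeR. *Fos* was at 225, 85.0 and 391 CPM and then 344, 425 and 207 CPM, with overlap. None of 14 genes of tight junctions and luminal keratins was called by limma, edgeR or DESeq2, and 1 had an unadjusted p under 0.05.

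Some of the largest increases fell outside the lists. *Hephl1*, a copper-containing oxidase related to hephaestin, was at 0.0813, 1.39 and 0.191 CPM at P3.5, at or under the floor of 3 reads in replicates 2 and 6, and at 55.9, 40.0 and 41.9 CPM at P14.5 (5.00, SE 0.58, FDR 1.31e-06). *Chrdl2*, which binds bone morphogenetic proteins, was at 4.96, 21.0 and 2.73 CPM and then 333, 211 and 259 CPM (5.06, SE 0.75, FDR 4.87e-05). The secreted protease *Adamts5* was at 1.87, 0.418 and 2.99 CPM and then 29.4, 60.2 and 31.3 CPM (3.95, SE 0.67, FDR 0.00028). All 3 were called under the 15 alternatives that exclude the block by replicate number. So was *Igf2*, an insulin-like growth factor, at 6.02, 2.09 and 2.86 CPM and then 82.5, 47.8 and 163 CPM (4.32, SE 0.74, FDR 0.00034), but 62.8% of its exon bases are shared with another protein-coding gene and its reads are uncertain.

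By absolute CPM, with no more than 3 genes of a family counted, the largest increases of means were those of *Csn2*, *Csn1s2a*, *Csn1s1* and *Glycam1*, and then of the mitochondrial transcripts *mt-Co1* and *mt-Cytb*, which were not called (FDR 0.39 and 0.47). The casein *Csn3*, left out by that limit, went from a mean of 2468 to 12904 CPM, a larger difference than that of either mitochondrial transcript. *mt-Co1* was at 7102, 12192 and 11468 CPM at P3.5 and 14534, 22711 and 19475 CPM at P14.5. The 22 mitochondrial genes took 4.32% ± 1.61 of all reads at P3.5 and 5.23% ± 1.74 at P14.5 (SD, n = 3 each, exact permutation p = 0.6).

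*Itih2*, a protein that binds hyaluronan in the matrix, was at 88.6, 81.1 and 52.8 CPM at P3.5 and 1.31, 0 and 0.169 CPM at P14.5 (-5.72, SE 0.70, FDR 3.02e-06). Pleiotrophin (*Ptn*), a heparin-binding growth factor, was at 1783, 1899 and 1333 CPM and then 326, 7.76 and 16.3 CPM (-5.49, SE 0.87, FDR 0.00016). P14.5 replicate 2 thus held many times more *Ptn* than the other P14.5 libraries and still less than any P3.5 library. The cytokine *Il33* was at 37.8, 30.7 and 41.4 CPM and then 0.927, 0.491 and 0.422 CPM (-4.55, SE 0.82, FDR 0.00062).

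The β and γ chains of fibrinogen fell together. *Fgb* was at 33.9, 83.0 and 33.9 CPM at P3.5 and 4.17, 0 and 0.0844 CPM at P14.5 (-4.72, SE 0.84, FDR 0.00056), and *Fgg* at 81.9, 140 and 91.4 CPM and then 18.4, 0.688 and 1.52 CPM (-4.56, SE 0.82, FDR 0.00058). The collagen gene *Col8a1* was at 86.6, 80.8 and 152 CPM and then 15.2, 1.87 and 3.29 CPM (-4.14, SE 0.83, FDR 0.0020). The call of *Fgg* ended without P14.5 replicate 3 and that of *Col8a1* without P3.5 replicate 6, P14.5 replicate 3 or P14.5 replicate 6. For *Ptn*, *Fgb*, *Fgg* and *Col8a1* the residual level at P14.5 was highest in replicate 2, and neither edgeR nor the fit of the 6 libraries alone called them. The homeobox gene *Msx2* was at 35.4, 37.5 and 18.0 CPM and then 2.63, 0.393 and 2.36 CPM (-3.54, SE 0.59, FDR 0.00023). *Cited1*, *Areg*, *R3hdml* (-3.56), *Ccbe1* (-3.56) and *Gcnt4* (-3.55) made up the rest of the 12 largest decreases.

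In absolute CPM the largest drop among called genes was that of *Ptn*. *Fcgbp*, a mucin-like IgG-binding protein, was at 1476, 2750 and 2033 CPM and then 641, 472 and 468 CPM, lower in every library but not called (-1.95, SE 0.67, FDR 0.098). *Abhd2*, *Ahnak*, *Lars2* and *Krt19* also had large differences in mean CPM, with overlap between the times and FDR from 0.46 to 0.96.

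The basal libraries of the same times, 3 at P3.5 and 2 at P14.5 (replicates 3 and 6), show which of these changes differed between the cell layers. Basal cells are the contractile outer layer that squeezes milk out. Of the 139 genes called higher in luminal cells, 124 also had a positive log2 fold change in basal cells and 40 were called higher there, where 420 genes (2.46%) were. Of the 121 called lower, 84 were negative in basal cells and 7 were called lower, where 202 genes (1.18%) were. The shares of all genes with a positive or a negative basal log2 fold change were not counted, so the counts of signs have no background. The basal P14.5 libraries differed among themselves: the milk protein list summed to 6256 and 53456 CPM in replicates 3 and 6, against 432 to 696 CPM in the P3.5 basal libraries. The fibroblast markers summed to 14111 and 7308 CPM in them, against 850 to 1321 CPM in the P3.5 basal libraries, and the part of either in the comparison with basal cells was not tested.

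The test of the difference itself found 33 genes (0.193%), with the luminal change above the basal one for 12 (0.0703%) and below for 21 (0.123%). With the sort as a block, since luminal and basal libraries of a sort come from the same mice, 96 genes passed, 28 above and 68 below. Most milk genes did not differ: for *Csn2* the luminal minus basal difference was -1.44 (SE 1.26), for *Plin2* 0.07 (SE 0.53) and for *Pigr* -0.27 (SE 1.18), intervals that leave room for sizeable differences in *Csn2* and *Pigr*. Of the hormone-sensing genes, *Tbx3* differed: it fell by 2.63 in luminal cells, and in basal cells it was at 33.99, 47.0 and 26.3 CPM at P3.5 and 74.4 and 50.0 CPM at P14.5 (difference -3.42, SE 0.60, FDR 0.0022).

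*Gnai1*, an inhibitory G protein subunit, rose in luminal cells from 2.44, 3.20 and 2.35 CPM to 27.5, 48.1 and 31.2 CPM, while basal cells were at 201.5, 133 and 132 CPM and then 121 and 119 CPM (difference 3.63, SE 0.68, FDR 0.0049). *Lgr4*, a receptor for R-spondins, rose from 33.9, 30.5 and 38.5 CPM to 147, 161 and 150 CPM, and basal cells were at 207, 196 and 156 CPM and then 150 and 142 CPM (2.47, SE 0.50, FDR 0.0088). At P3.5 both genes were well below the basal level, and at P14.5 the luminal and basal *Lgr4* values overlapped. The amino acid transporter *Slc7a5* (LAT1) was at 145, 241 and 134 CPM and then 400, 305 and 304 CPM in luminal cells, which was not called, and fell in basal cells from 894, 953 and 632 CPM to 169 and 236 CPM (3.01, SE 0.50, FDR 0.0011). *Hadha*, a subunit of the mitochondrial enzyme of fatty acid oxidation, was at 200, 208 and 198 CPM and then 506, 304 and 411 CPM in luminal cells, just short of a 2-fold change (0.98, SE 0.19, FDR 0.0014).

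In the other direction, *Itih5* fell in luminal cells from 136, 134 and 125 CPM to 32.6, 18.9 and 30.4 CPM and rose in basal cells from 30.2, 37.4 and 36.8 CPM to 281 and 169 CPM (difference -4.89, SE 0.66, FDR 7.7e-05). *Egflam*, a matrix protein, fell from 17.2, 16.8 and 15.8 CPM to 2.01, 0.688 and 0.675 CPM, and basal cells were at 6.00, 5.89 and 3.90 CPM and then 30.4 and 29.6 CPM (-5.43, SE 0.83, FDR 0.00030). *Piezo2*, a stretch-activated channel, fell from 63.7, 86.8 and 43.0 CPM to 14.1, 3.44 and 3.37 CPM, with basal cells at 3.51, 10.9 and 2.96 CPM and then 24.2 and 10.2 CPM (-4.74, SE 0.91, FDR 0.0054). The differences of *Olfml2b* and the ferritin receptor *Scara5* were -5.55 (SE 0.87) and -5.30 (SE 1.03). For these 5 genes the log2 fold change was negative in luminal and positive in basal cells, and the fibroblast markers were higher in the same basal P14.5 libraries.

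**Figure D5:**
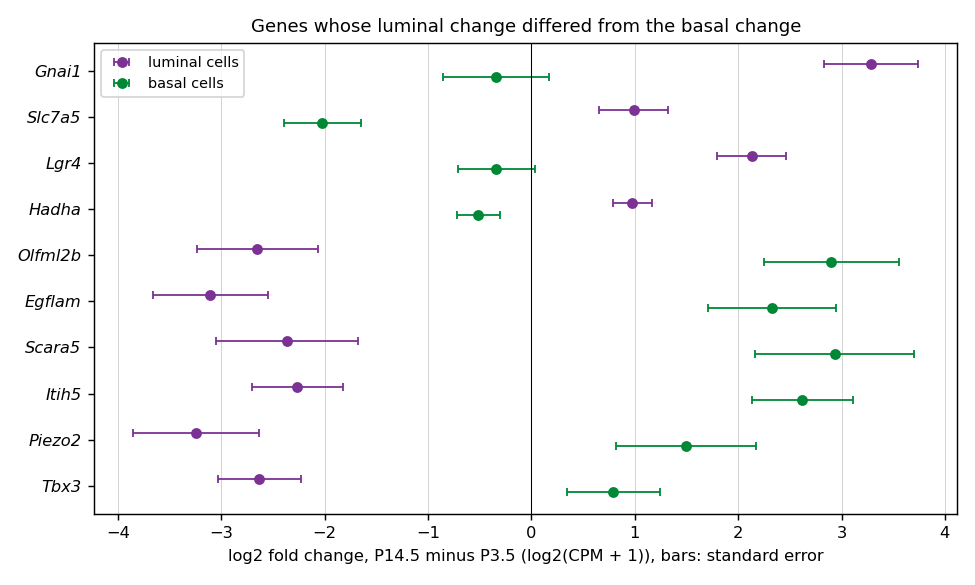
Log2 fold change (P14.5 minus P3.5, log2(CPM + 1)) with its standard error in luminal cells (purple, 3 libraries at each time) and basal cells (green, 3 and 2 libraries) for *Tbx3* and 9 genes whose change differed between the cell types. *Itih5* stands at -2.26 in luminal and 2.62 in basal cells, and *Gnai1* at 3.29 in luminal and -0.34 in basal cells.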

How the data were processed

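RNA of sorted cells was amplified and sequenced by the authors, aligned with GSNAP to mouse build mm9, assigned to Ensembl genes by htseq-count and normalized with edgeR. The deposited signal is a normalized CPM for 17078 genes in 46 libraries, from which the authors had removed genes under 1 CPM in 3 samples and very abundant genes of low variability. The basal library of P14.5 replicate 2 has no values in the deposited data and was not analysed here, and 0 columns were left without a sample. The authors removed 1 basal library of P14.5 as an outlier, because it grouped with the luminal libraries. Each value is a whole multiple of the step of 1 read (100% of values in each library, tolerance 0.01 reads), which gave the reads and depths. Floors cover counting error only, since reads carry no molecular identifiers.

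The model was limma 3.58.1 (R 4.3.3) with a mean-variance trend on log2(CPM + 1), 16 condition means and 30 residual degrees of freedom, with no technical covariates, as in the study. Genes were called at a 2-fold change and a Benjamini-Hochberg FDR under 0.01 over all 17078 genes, and the same fit tested the luminal minus basal difference. The scripts were tested on simulated data. Luminal and basal libraries of a sort come from the same pool of mice, and the deviations of 22 such pairs correlated at -0.0048 to 0.386. Alternatives were another pseudocount (0.1), 2 other scalings, a filter at a mean of 5 CPM, fewer libraries, blocks, edgeR 4.0.16 and DESeq2 1.42.0 on recovered reads, an FDR of 0.05 and each luminal library left out. P-values of the main fit rest on the spread among libraries of a condition, taken over all 46 libraries from 24 sorts. Luminal and basal libraries of a sort were counted as separate in it. This spread holds differences between pools of mice. It also holds differences between amplification batches at other time points, where libraries of a condition came from batches 1, 2 and 3.

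Gene names were found for 16897 of the identifiers in a later annotation, from which exon overlaps were also taken. Coordinates are given only for RefSeq promoters. Of 445 genes in 27 lists, 428 are in the table. The gene lists and the rule for named genes were chosen with earlier results of these data known. The rule took every milk protein, prolactin and hormone-sensing gene, the leading called members and the most abundant member of each other list, the 12 largest called changes in each direction (mean of at least 5 CPM at the higher time, no overlap), the 6 largest differences in mean CPM in each direction and the 5 largest differences from basal cells in each direction, of which 4 existed above. Other genes named from the lists, such as *Xdh*, *Acaca*, *Dgat1*, *Hey1* and *Top2a*, were chosen after their values were seen.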

Additional observations from a re-analysis of the deposited data

Results flagged for a closer look

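The change from P3.5 to P14.5 differed between luminal and basal cells for 4 genes with a more positive and 16 with a more negative luminal change among those with at least 5 CPM in a luminal group, by a direct test of the difference in limma over all 17078 genes. The values are given for the first 4 and for the 5 most negative of the others. The luminal minus basal log2 fold change was 3.63 for *Gnai1*, 3.01 for *Slc7a5*, 2.47 for *Lgr4* and 1.49 for *Hadha*. It was -5.55 for *Olfml2b*, -5.43 for *Egflam*, -5.30 for *Scara5*, -4.89 for *Itih5* and -4.74 for *Piezo2*. The basal P14.5 group has 2 libraries, in which fibroblast markers summed to 14111 and 7308 CPM against 850 to 1321 CPM in the P3.5 basal libraries, and the part of this in these differences was not tested. In the luminal libraries the same markers summed to at most 185 CPM.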

How the results depend on the processing

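Against 139 genes called higher and 121 lower in luminal cells, 252 and 272 passed at an FDR of 0.05. DESeq2 on recovered reads called 245 and 259, and edgeR 98 and 76. Rescaling by the sum without milk proteins gave 101 and 249. Leaving out 1 library gave 72 to 89 higher and 46 to 81 lower. For the 33 genes whose luminal and basal changes differed, the count was 16 with a pseudocount of 0.1, 20 among genes with a mean of at least 5 CPM, 12 by edgeR, 109 by DESeq2, 96 with the sort as replicate block and 14 to 26 when 1 luminal library was left out. This comparison was not run on the 6 luminal libraries alone, which hold no basal cells. The difference in the milk protein share of reads stayed positive in every alternative, at 15.7 percentage points for caseins and *Wap* alone, where the exact permutation test could not go below p = 0.1. Replicate numbers 2 and 6 occur at both times but do not mark shared mice, and the third P14.5 sort is numbered 6 by its sample code and 5 in words, so what follows for 6 rests on the code: the deviations of their libraries correlated at -0.083 and -0.165, and with the number as a replicate block, which left 1 residual degree of freedom, 0 genes were called higher and 0 lower by limma, against 4348 with an unadjusted p under 0.05. With the sort as a block, 146 and 125 genes were called, and no named gene lost its call. Of the 55 named genes that were called, none changed sign in the 15 alternatives, which leave out the block by replicate number. The number that kept the call was 55 with median-ratio scaling, the 5 CPM filter and DESeq2, 51 with scaling without milk proteins, 49 with the 24 luminal libraries, 48 with a pseudocount of 0.1, 36 with the 6 libraries alone, 34 with edgeR and 33 to 38 with 1 library left out. The fit of the 6 libraries alone ended the calls of *Csn1s1*, *Csn2*, *Btn1a1*, *Dgat2*, *Scd2*, *Sec24d*, *Esr1*, *Mcm7*, *Bhlhe41*, *Myc*, *Fabp4*, *Ptn*, *Fgb*, *Fgg*, *Col8a1*, *R3hdml*, *Gcnt4*, *Olfml2b* and *Piezo2*. Leaving a library out also leaves an arm with 2, and other causes of lost calls were not tested. Of the named genes that were not called, 9 changed sign under some setting, among them *Wnt4*, *Tnfsf11*, *Calca* and *Socs3*. Depth limits genes near 3 reads, such as *Hephl1* at P3.5 and *Itih2* at P14.5.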

Other observations

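The hormone-sensing genes that were low at P14.5 were not equally low in the luminal libraries of lactation, which are given as values because their amplification batch (5) differs from that of both pregnancy times (6) and cannot be told apart from stage. *Cited1* averaged 351 ± 71.2 CPM at P3.5, 15.6 ± 3.64 at P14.5, 317 ± 244 on day 3 of lactation and 255 ± 86.7 on day 10 (SD, n = 3 each), with 36.1 to 481 CPM among the libraries of day 3. *Tbx3* averaged 55.5 ± 4.95, 8.67 ± 3.93, 36.2 ± 25.5 and 54.0 ± 6.11 CPM at the same times, and *Esr1* 77.7 ± 27.7, 18.1 ± 4.57, 54.8 ± 13.3 and 58.0 ± 9.08 CPM. Means on day 3 were below those at P14.5 for *Areg*, at 308 ± 65.6, 24.5 ± 11.4, 11.9 ± 12.3 and 57.1 ± 35.0 CPM, for *Pgr*, at 33.95 ± 6.01, 12.1 ± 6.89, 3.11 ± 3.55 and 19.3 ± 8.90 CPM, and for *Myb*, at 26.6 ± 7.92, 4.03 ± 1.02, 0.949 ± 0.890 and 11.7 ± 3.35 CPM. Among the genes with the largest changes, *Itih2* averaged 74.2 ± 18.9, 0.494 ± 0.715, 0.687 ± 0.735 and 5.46 ± 2.52 CPM, and *Hephl1* 0.555 ± 0.728, 46.0 ± 8.70, 140 ± 27.6 and 58.4 ± 20.03 CPM.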
